A study of Mus musculus with 2 samples.

Results

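The cells described here are a small mesenchymal group of the wildtype embryonic heart, marked by the genes Sgcz, Adamts18, Negr1, Ebf2, Egfem1, Rspo2 and Adamtsl3. They were chosen by these genes, so the levels of the 7 are a description of the choice. In the wildtype library, 127 cells of 5239 non-erythroid cells were members (2.42%, exact Clopper-Pearson 95% interval [2.02, 2.88]), out of 13406 cells of the whole series. A member had at least 3000 UMIs (unique molecular identifiers, each a counted transcript molecule), at least 500 genes and at most 20% mitochondrial UMIs. Hemoglobin made up under 20% of its UMIs, Ttn, the muscle protein titin, under 8 per 10000, and under 3 of 6 endothelial genes (Pecam1, Cdh5, Egfl7, Kdr, Tek and Emcn) were detected. The 3166 wildtype cells that met these conditions are called the gate below, and members were those with at least 4 of the 7 genes at 1 UMI or more. They made up 4.01% of the gate [3.35, 4.75].

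The study compared hearts of mouse embryos at stage E10.5 by single-cell RNA sequencing. The wildtype pool was BubR1+/+ ; Nkx2.5-cre (het) and the knockout pool BubR1fl/fl ; Nkx2.5-cre (het), so each carried 1 copy of the Cre transgene. Each library was a pool of 4 hearts, and there was 1 library per genotype. Per the labels' protocols, embryos were held on ice for 3 hours before dissociation. Nkx2.5-cre acts in cardiac progenitors and their descendants, and which of the cells described here it reached was not analysed here. With 1 library per group no test was possible. Intervals in the text cover counting error only, not the spread between embryos.

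Mesenchymal cells of the early heart region lie in the endocardial cushions, the outflow tract and the tissue at the inflow and behind the heart, where the heart joins the foregut and the future lung. The factor Ebf2 belongs to the EBF family, DNA-binding proteins that act in mesenchyme, fat and bone precursors. Rspo2 is a secreted R-spondin that raises Wnt signalling at the cell surface, Adamts18 a secreted metalloprotease of the extracellular matrix, and Negr1 a membrane-anchored adhesion protein of the IgLON family.

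The wildtype and knockout files held 122834180 and 130039314 UMIs. Members had a median of 8359 UMIs (range 3440 to 40959) and 3289 genes, close to the 8592.5 UMIs and 3301 genes of the 5112 other non-erythroid cells. The median mitochondrial share of members was 4.98%. From the hemoglobin in their UMIs, free RNA could make up at most 1.81% of the members' UMIs. The libraries also differed in the sex of their cells and the globins of their erythroid cells. Of knockout non-erythroid cells, 4457 had transcripts of Xist without Y genes and 1 had the reverse, while wildtype held 2030 and 2265. Adult beta globin made up 16.8% of globin UMIs in wildtype erythroid cells and 2.55% in knockout ones, and embryonic zeta globin 7.98% and 29.6%. In values of the knockout library, genotype therefore cannot be told apart from these differences. The libraries shared 8 cell barcodes, 1 of them a member's.

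The 7 genes that chose the members were unevenly spread among them (the plot of rule genes detected per cell). Of the 127 members, 67 had 4 of the genes, 42 had 5, 16 had 6 and 2 had all 7. Just outside the threshold lay 129 cells of the gate with 3 of them. Summed over cells, Sgcz stood at 590 CPM (UMIs of the gene per 1000000 UMIs of the set) in cells with 3 genes and 1444 CPM in those with 4, Adamts18 at 200 and 347, Ebf2 at 119 and 135, and Rspo2 at 91.4 and 196. A further 15 wildtype cells with at least 4 of the genes lay outside the gate, 12 of them for endothelial genes and 8 for Ttn.

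**Figure D1:**
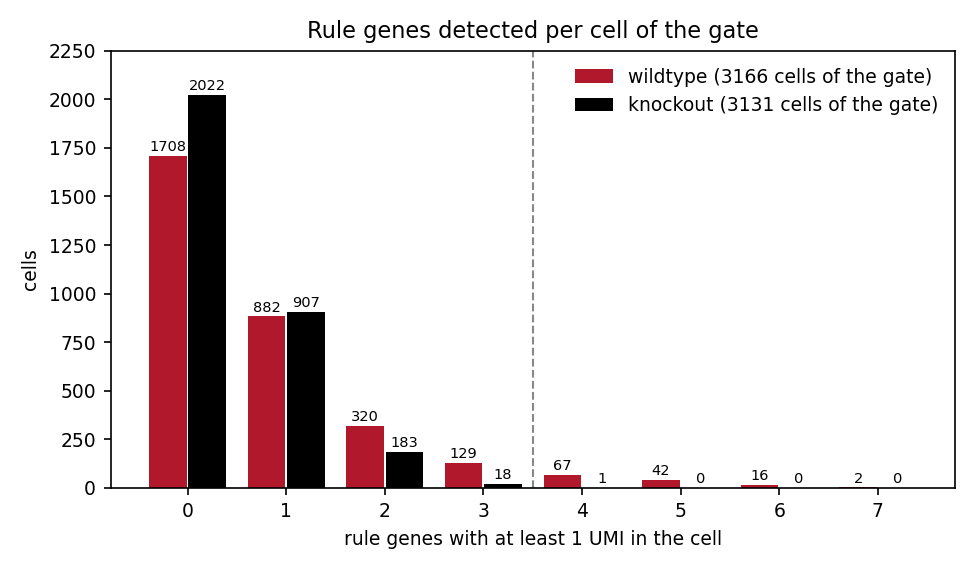
Number of gate cells (y axis) by how many of the 7 rule genes had at least 1 UMI (x axis), in the wildtype library (red) and the knockout library (black); the dashed line is the threshold for membership. Wildtype counts fall from 1708 cells with none to 2 cells with all 7, and 1 knockout cell passes the threshold.

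Sgcz encodes zeta-sarcoglycan, a membrane protein of the dystrophin-associated complex. It stood at 1612 CPM in members, 42.3 CPM in other non-erythroid cells and 65.2 CPM in the other 3039 cells of the gate, with a UMI in 85.8% of members [78.5, 91.4]. Adamts18 stood at 430, 11.6 and 17.6 CPM in the same 3 sets, with a UMI in 59.1% of members. Ebf2 stood at 182, 11.9 and 19.8 CPM and was found in 55.1%. Not every member had a transcript of the genes in the group's name, and 38.6% had UMIs of both Adamts18 and Ebf2.

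Rspo2 stood at 295 CPM in members and 7.75 CPM in other non-erythroid cells, with a UMI in 70.1% of members. Adamtsl3, an Adamts-like matrix protein without a protease domain, stood at 331 and 11.9 CPM and was found in 83.5%. Negr1 stood at 1202 and 98.9 CPM and was found in 72.4%, and it was also found in 21.1% of other non-erythroid cells. Egfem1, a gene with EGF-like domains, stood at 222 and 11.5 CPM and was found in 37.0%. After each cell was thinned to 3000 UMIs, Sgcz was found in 80.3% of members, 7.07% of other gate cells and 1.45% of erythroid cells, which should lack it. For Ebf2 these shares were 34.7%, 3.36% and 0.682%. Unthinned, the erythroid shares were 3.18% and 1.82% at a median of 11578 UMIs.

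Sequences before the start sites of Adamts18 and Negr1 are shown as 1 rule gene higher in each of the 2 clusters of members given further on, and that of Cxcl13 as the leading gene with a different kind of promoter. They come from RefSeq on build GRCm38.p6, each the 250 bases before the start site, 5′ to 3′ on the gene's strand. Adamts18 (ENSMUSG00000053399, minus strand) has its window at chr8:113848840-113849089, Negr1 (ENSMUSG00000040037, plus strand) at chr3:156561544-156561793 and Cxcl13 (ENSMUSG00000023078, plus strand) at chr5:95956689-95956938. Capitals mark the letters TATAAA.
Adamts18: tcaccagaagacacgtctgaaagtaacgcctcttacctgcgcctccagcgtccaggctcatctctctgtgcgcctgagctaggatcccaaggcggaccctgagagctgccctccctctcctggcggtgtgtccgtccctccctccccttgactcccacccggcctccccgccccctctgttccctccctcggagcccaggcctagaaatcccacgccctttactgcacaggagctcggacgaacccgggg
Negr1: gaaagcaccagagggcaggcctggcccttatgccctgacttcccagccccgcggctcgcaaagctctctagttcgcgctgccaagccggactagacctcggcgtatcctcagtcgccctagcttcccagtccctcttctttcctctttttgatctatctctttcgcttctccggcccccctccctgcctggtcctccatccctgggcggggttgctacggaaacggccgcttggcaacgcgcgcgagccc
Cxcl13: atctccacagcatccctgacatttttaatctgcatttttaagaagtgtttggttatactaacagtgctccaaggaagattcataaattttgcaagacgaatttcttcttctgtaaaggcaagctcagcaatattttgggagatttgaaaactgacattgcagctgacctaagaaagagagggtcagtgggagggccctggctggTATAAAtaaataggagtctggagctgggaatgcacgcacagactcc
The Adamts18 window held 15 CpG and 65.2% G and C, and that of Negr1 19 CpG and 63.6%. The Cxcl13 window held 2 CpG, 42.0% G and C, and TATAAA starting 46 bases before the RefSeq start site. The first bases after the start site were found in a GENCODE transcript for Negr1, but not for Adamts18 or Cxcl13. Over 32851 windows of all genes the median was 6 CpG and 52.4%, and 7.59% held TATAAA on the gene's strand. The EBF motif was searched as TCCCNNGGG on both strands in 300 bases, 50 of them past the start site. Of the rule genes, 4 of 7 had windows (Adamts18, Negr1, Egfem1 and Adamtsl3), and 0 of their 5 windows held it. Among 22 leading genes, which include the 7 rule genes and their windows, 17 had windows and 3 held it, namely Tmem132c, Cacna2d3 and Kcnd2, which is 15.8% of windows against 6.56% of all windows. The promoter of Ebf3 itself held a match 22 bases before its start. A match describes letters and shows no binding.

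Of 10532 genes with at least 10 CPM in members or in other non-erythroid cells, 456 were at least 2-fold higher in members (4.33%) and 724 at least 2-fold lower (6.87%), as log2 ratios with 10 CPM added to each side. Against the other gate cells, 359 of 10423 genes were at least 2-fold higher (3.44%) and 568 lower (5.45%). The median gene stood at 0.01 and -0.02. These shares over all genes are the background for the counts of each list below. The same cells were chosen by their transcripts, so these ratios describe the members and test nothing. A gene that reached 10 CPM in members alone had to be higher there: this holds below for Cxcl13, Shisa9, Mdga2, Il1rapl2, Cacna2d3, all anterior Hox genes but Hoxa5, Tbx3, Tbx4, Fgf10, Foxf1, Gli1, Crabp2, Stra6, Wif1, Iglon5, Twist2, Isl1, Pcdh19, Gdf10, Lhx6, Alx1 and Matn4. Brackets after a ratio give the exact interval of the plain ratio, without the added CPM.

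Among genes that the choice did not use, Cxcl13, Cdh18, Crabp1 and Tmtc2 led. Cxcl13, a chemokine that attracts B cells, stood at 258 CPM in members and 3.28 CPM in other non-erythroid cells (log2 4.33, plain [6.02, 6.58]). It was uneven: a UMI was found in 24.4% of members, and 5 cells held 54.5% of its UMIs. Cdh18, a cadherin, stood at 521 and 16.5 CPM (4.32, plain [4.83, 5.13]). Crabp1, a carrier of retinoic acid in the cytoplasm, stood at 352 and 14.2 CPM (plain [4.45, 4.81]). Tmtc2, a protein of the endoplasmic reticulum, was the broadest of the leading genes, at 2798 and 266 CPM, with a UMI in 97.6% of members and 58.9% of the other cells.

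Further leading genes follow. Shisa9 (174 and 9.38 CPM), Mdga2 (177 and 9.98 CPM), Il1rapl2 (140 and 8.66 CPM), Kctd16 (186 and 14.3 CPM) and Cacna2d3 (142 and 8.04 CPM) are best known from neurons. Eya4, a transcriptional coactivator of developing organs, stood at 463 and 44.7 CPM and was found in 80.3% of members. Tmem132c stood at 241 and 17.5 CPM, and Dgkb, a diacylglycerol kinase, at 161 and 10.3 CPM. Against the gate alone, the potassium channel Kcnd2 (986 and 85.8 CPM) and Ccser1 (584 and 42.0 CPM) joined the highest genes. Of the list of neuron markers, 1 of 4 tested genes was at least 2-fold higher (Elavl4, 32.3 and 10.8 CPM), 1 lower (Gap43, 11.9 and 58.9 CPM), and 5 of 12 had 0 UMIs.

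Anterior Hox genes place cells along the head-to-tail axis. Of 15 listed genes 7 reached 10 CPM, and all of these but Hoxa5 did so in members alone, so the direction of these 7 (median log2 ratio 2.22) is a description. Hoxa5 stood at 163 CPM in members and 10.4 CPM in other non-erythroid cells (3.08 [3.73, 4.21]), and was found in 66.1% of members. Hoxa3 stood at 87.7 and 6.06 CPM, Hoxa4 at 73.2 and 4.16 CPM, and Hoxb3 at 73.2 and 7.81 CPM. Hoxa2, Hoxb2 and Hoxb4 stood between 46.0 and 49.4 CPM in members and between 2.74 and 9.90 CPM in the others. Against the gate the median was 2.02. Against the Eln-rich cells described further on it was 0.89, with 4 of 8 tested genes at least 2-fold higher and 0 lower. Of 24 posterior Hox genes, 23 had 0 UMIs in members.

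Some factors of the mesenchyme around the foregut and lung were also higher. Of 8 tested genes of that list, 5 were at least 2-fold higher (Tbx2, Tbx3, Tbx4, Tbx5 and Fgf10) and 0 lower, with a median of 1.34. Over all genes, 4.33% were higher. Tbx3, Tbx4, Fgf10 and Foxf1 reached 10 CPM in members alone, so they could only be higher, and the count and median are a description. Tbx4, a T-box factor of lung and hindlimb mesenchyme, stood at 39.2 and 2.14 CPM. Tbx2 stood at 90.2 and 10.1 CPM, Tbx3 at 57.0 and 8.29 CPM, and Tbx5, also a factor of the heart's inflow, at 74.9 and 26.2 CPM. Fgf10, the growth factor that drives lung budding, stood at 25.5 and 2.93 CPM, and Gata6 was lower at 125 and 216 CPM (log2 -0.74). Foxf1, a defining factor of foregut mesenchyme, was low, at 12.8 and 1.85 CPM.

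Hedgehog proteins signal from epithelium to the mesenchyme beside it. Genes of the pathway were at least 2-fold higher in 6 of 10 tested cases, against 4.33% of all genes, and lower in 0 (median 1.25). Ptch1, the receptor that is also a target, stood at 80.0 and 29.6 CPM, and Gli1, the target factor of the pathway, at 20.4 and 1.11 CPM. The coreceptors Boc (346 and 40.3 CPM) and Cdon (277 and 103 CPM) and the factors Gli2 (133 and 44.7 CPM) and Gli3 (395 and 153 CPM) made up the rest of the 6. Against the gate, 3 of 10 were at least 2-fold higher, with Boc at 2.33.

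In the retinoic acid pathway, 5 of 12 tested genes were at least 2-fold higher, against 4.33% of all genes, and 0 lower (median 0.65). Crabp2 and Stra6 of these 5 reached 10 CPM in members alone. Crabp2, the carrier that delivers retinoic acid to nuclear receptors, stood at 70.6 and 5.63 CPM, the receptor gene Rarg at 42.6 CPM in members (log2 1.36), and Rdh10, which makes retinaldehyde, at 47.7 and 15.4 CPM. Stra6, a retinol transporter, stood at 15.3 and 0.816 CPM, and Crabp1 was the other of the 5. The synthesising enzyme Aldh1a2 stood at 71.5 and 81.4 CPM (log2 -0.16), so it was not among them.

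R-spondins and other Wnt control proteins at the surface were counted without Rspo2. Of 11 tested genes 3 were at least 2-fold higher, against 4.33% of all genes, and 0 lower (median 0.42). Rspo3, the close relative of Rspo2, stood at 169 and 33.7 CPM. Wif1, a secreted Wnt inhibitor, stood at 30.6 and 2.45 CPM, and Sfrp2, a secreted Wnt-binding protein, at 225 and 99.3 CPM. The R-spondin receptor Lgr4 stood at 46.8 and 32.4 CPM, and Lgr5 had 3 UMIs in all members. Of 15 Wnt ligands and receptors, 3 were at least 2-fold higher: Wnt5a (220 and 52.3 CPM) and the receptors Ror1 (570 and 153 CPM) and Fzd2 (157 and 68.2 CPM), while Wnt4 was lower (3.40 and 31.8 CPM). The median of this list was 0.30, and 0.03 against the other gate cells. Against Eln-rich cells it was -0.03, with a sum of 1457 CPM in members and 1689 CPM in those cells. Against Tnxb and Col14a1 cells and cushion-type cells it was 0.39 and 0.35. Of 6 tested Wnt target genes 0 were at least 2-fold higher and 1, Apcdd1, was lower (5.11 and 21.0 CPM).

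The family of Ebf2 split. Ebf3 stood at 293 CPM in members and 37.7 CPM in other non-erythroid cells (2.67 [2.79, 3.13]), whereas Ebf1 stood at 123 and 451 CPM (-1.80 [-2.13, -1.64]). Ebf1 was found in 29.1% of members and 62.4% of the other cells, so the family member found in most other cells was found in the minority of members. Among regulators of fat cells, where Ebf2 is also known to act, 2 of 9 tested genes were at least 2-fold higher and 4 lower. Prdm16 stood at 30.5 CPM in the other cells (log2 1.47), while Pparg, the central factor of fat cells, had 0.851 CPM in members.

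Guidance receptors steer axons and migrating cells. Of 28 tested genes of the list 12 were at least 2-fold higher, against 4.33% of all genes, and 4 lower, against 6.87% (median 0.91). Robo1, a receptor for Slit proteins, stood at 2626 and 394 CPM, with a UMI in 98.4% of members. The netrin receptor gene Unc5c stood at 1974 and 301 CPM, Sema5a at 463 and 84.8 CPM, and the ephrin receptor gene Epha5 at 146 and 14.8 CPM. Plxna4 was lower at 54.5 and 256 CPM. Of the IgLON adhesion genes other than Negr1, 3 of 4 were at least 2-fold higher: Ntm (260 and 75.1 CPM), Lsamp (130 and 55.5 CPM) and Iglon5 (17.0 and 1.05 CPM), with Opcml at 88.5 and 47.2 CPM. Cadherins and protocadherins, which join like cells, were at least 2-fold higher in 6 of 16 cases and lower in 1. Cdh8 stood at 203 and 18.0 CPM and Pcdh19 at 51.1 and 4.83 CPM, while Cdh13 was lower at 35.7 and 235 CPM.

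The members carried genes of mesenchyme, with gaps. Prrx1, a homeobox factor of limb and head mesenchyme, stood at 334 and 48.2 CPM and was found in 90.6% of members. Col1a1 (1629 and 722 CPM), Col1a2 (1523 and 704 CPM) and Twist2 (49.4 and 6.76 CPM) were the others at least 2-fold higher among 13 tested general mesenchyme genes. Pdgfra stood at 150 and 92.1 CPM, the intermediate filament gene Vim was lower at 548 and 1739 CPM, and Thy1 had 0 UMIs. Against the gate, 2 of 13 tested genes of this list were higher and 2 lower (median 0.20). The list summed to 8156 CPM in members and 9082 CPM in the other gate cells. In Tnxb and Col14a1, Eln-rich and cushion-type cells, described further on, it summed to 11129, 8428 and 9026 CPM. In members of the 2 clusters given further on, it summed to 10359 CPM (first) and 4032 CPM (second). Of 9 fibrillar collagen genes, 4 were at least 2-fold higher against all others (median 0.99) and 0 against the gate (median 0.42). Osr1, a factor of the posterior second heart field and of lateral mesoderm, stood at 213 and 23.8 CPM, and Isl1, a progenitor factor of the second heart field, at 45.1 and 5.38 CPM. Of 7 tested second heart field genes, 3 were at least 2-fold higher (Osr1, Isl1 and Fgf10) and 2 lower (Mef2c and Nkx2-5), with a median of 0.26, and 3 of 15 listed had 0 UMIs in members, Nkx2-5 among them. Isl1 and Fgf10 reached 10 CPM in members alone. Against Eln-rich cells the list had a median of -0.63, with a sum of 426 CPM in members and 678 CPM in those cells. Against Tnxb and Col14a1 cells and cushion-type cells the medians were 1.55 and 1.36.

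Proteases of the Adamts family, leaving out Adamts18, were at least 2-fold higher in 3 of 11 tested cases (Adamts1, Adamts9 and Adamts12) and lower in 0, with a median of 0.78. Adamts12 stood at 130 and 33.8 CPM. Of 16 other collagen genes 6 were at least 2-fold higher and 1 lower, with Col25a1 at 151 and 52.8 CPM, Col12a1 at 107 and 28.4 CPM, and Col18a1, a collagen of basement membranes, at 18.7 and 201 CPM. Basement membrane genes went the other way, with 5 of 16 lower and 1 higher (median -0.72). Col4a1 stood at 74.9 and 317 CPM and the laminin gene Lama2, the exception, at 261 and 57.3 CPM. The sarcoglycan and dystrophin complex, apart from Sgcz, had 1 of 11 genes higher, Sgcd at 487 and 152 CPM, and 1 lower, Dmd at 125 and 276 CPM.

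**Figure D2:**
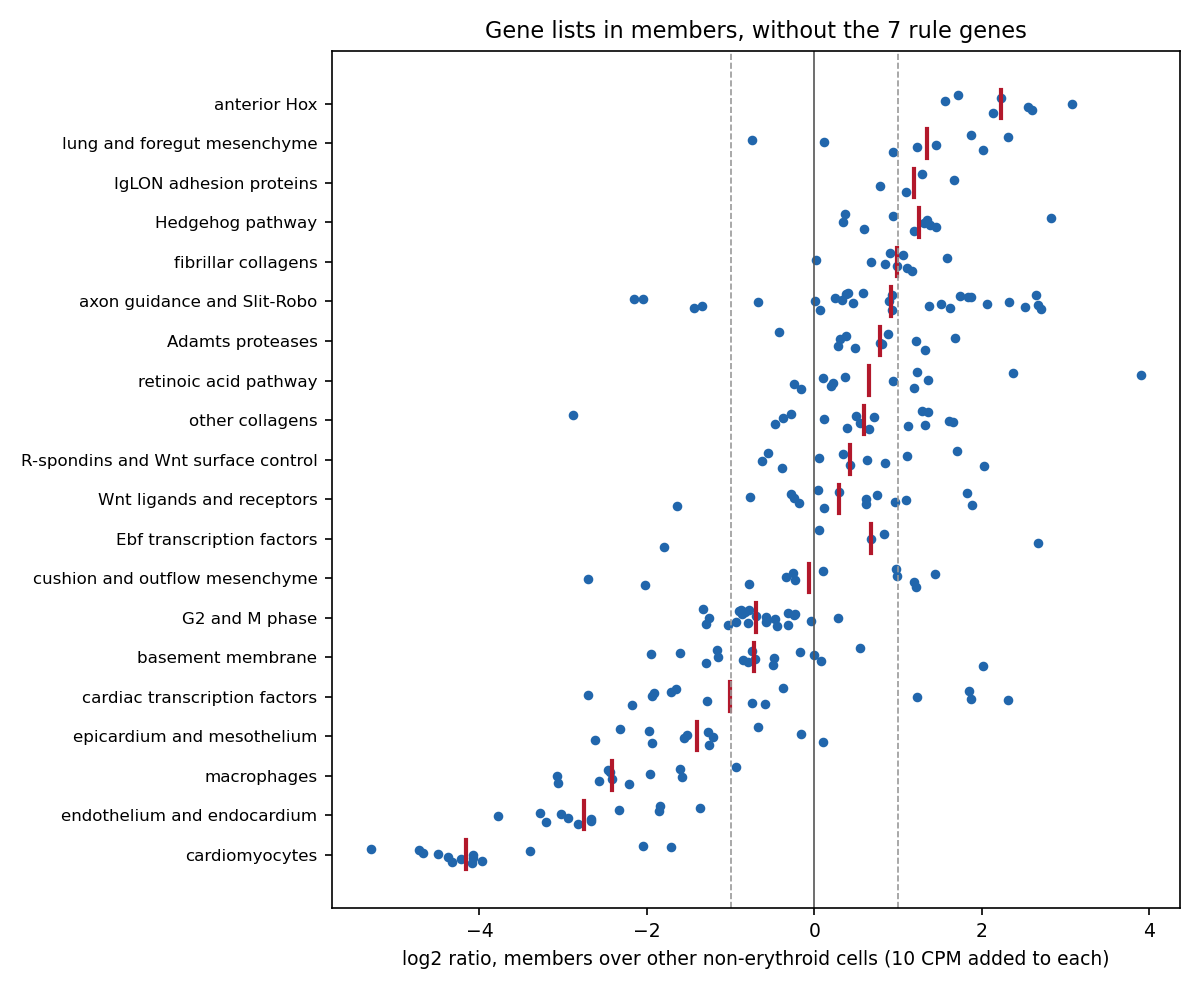
Log2 ratio of each tested gene (blue points) in members over other non-erythroid cells of the wildtype library, with 10 CPM added to each, for 20 gene lists without the 7 rule genes; red bars are list medians and dashed lines mark 2-fold. The 7 anterior Hox genes all lie beyond 2-fold higher (median 2.22), but all of them except Hoxa5 reached 10 CPM in members alone. The 14 cardiomyocyte genes all lie beyond 2-fold lower, which the limit on Ttn in members helped to set.

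Markers of other cell types were low. All 14 cardiomyocyte genes were at least 2-fold lower (median -4.16), against 6.87% of all genes, and their summed level was 473 CPM in members and 11876 CPM in other non-erythroid cells. The limits on Ttn and on endothelial genes, which the other non-erythroid cells did not have to meet, helped to set this. Against the other gate cells, 5 of 12 tested cardiomyocyte genes were lower and 0 higher (median -0.75), with a sum of 1245 CPM there. In Tnxb and Col14a1, Eln-rich and cushion-type cells the list summed to 518, 856 and 500 CPM, so members were near the first and last of these. Titin itself stood at 26.4 and 1424 CPM, and the sarcomere genes Actc1, Myl2, Myl3 and Tnnt2 between 36.6 and 71.5 CPM in members. All 12 endothelial genes were lower, with a sum of 58.7 and 1147 CPM. Against the other gate cells, 4 of them were tested and 3 were lower, with a sum of 210 CPM there.

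Epicardial and mesothelial genes, which the gate did not use, were lower in 10 of 13 tested cases against the gate (median -1.91), with a sum of 384 and 1602 CPM. Tbx18 stood at 28.9 CPM in members and 231 CPM in the other gate cells, and Wt1 at 32.3 and 149 CPM. Tcf21, also carried by epicardial descendants, was nearer at 95.3 and 150 CPM. Macrophage genes were lower in 12 of 12 cases, with a sum of 36.6 and 1108 CPM. The gate held 211 cells of a cluster led by C1qb and 297 of one led by Msln, which raised these gate levels. In Tnxb and Col14a1, Eln-rich and cushion-type cells, described further on, macrophage genes summed to 109, 14.8 and 72.6 CPM. Epicardial and mesothelial genes summed to 1224, 258 and 696 CPM there, so the Eln-rich cells were below the members in both. Chosen after their values were seen, C1qb of macrophages (3.40 and 180 CPM) and Upk3b of mesothelium (15.3 and 250 CPM) were among the lowest against the gate. Of 12 neural crest and Schwann genes 8 had 0 UMIs, Sox10 among them, as did 9 of 10 hepatic genes.

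Cardiac transcription factors split, with 4 of 14 tested genes at least 2-fold higher and 7 lower, against 4.33% and 6.87% of all genes. The 4 higher genes were Tbx2, Tbx3, Tbx5 and Isl1, given above, and Tbx3 and Isl1 reached 10 CPM in members alone. Tbx20, a factor of the heart muscle and cushions, was lower at 63.0 and 467 CPM. Gata4 stood at 49.4 and 260 CPM, Mef2c at 55.3 and 236 CPM and Hand2 at 28.1 and 82.6 CPM. Genes of G2 and M phase were lower in 4 of 23 cases and higher in 0 (median -0.70), while 0 of 18 S-phase genes passed 2-fold (median -0.17). Bub1b, the gene floxed in the knockout pool, stood at 28.9 CPM in members and 43.7 CPM in other non-erythroid cells, with 34 UMIs in members.

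Signalling and growth genes of other lists moved both ways. Over all genes, 4.33% were at least 2-fold higher and 6.87% lower. Of 19 tested Bmp genes 4 were at least 2-fold higher and 4 lower, with Bmper, a secreted Bmp regulator, at 106 and 42.1 CPM, Gdf10 at 29.8 and 4.64 CPM, and Smad6, an inhibitory target, at 50.2 and 118 CPM. Among Fgf genes 2 of 13 were higher and 2 lower, with the receptor gene Fgfr1 at 130 and 56.5 CPM and Dusp6, a feedback target, at 0.851 and 24.8 CPM. The imprinted genes Dlk1 (498 and 205 CPM) and Meg3 (965 and 440 CPM), neighbours in the genome, were the 2 of 14 higher in their list. The jaw and face factors Alx1 (33.2 and 2.04 CPM) and Lhx6 (16.2 and 1.61 CPM) were the 2 of 3 tested pharyngeal arch genes that were higher, and 7 of 16 of that list had 0 UMIs. Alx1 and Lhx6 reached 10 CPM in members alone, so they could only be higher. Immediate early genes, which rise when cells are dissociated, were at least 2-fold higher in 0 of 13 cases and lower in 4.

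When all non-erythroid wildtype cells were clustered without the 7 rule genes, the members fell mainly into 2 of 25 clusters. The first cluster had 179 cells, of which 67 were members (52.8% of members), and the second had 135 cells, of which 48 were members (37.8%). The remaining 12 members lay in 4 other clusters, whose leading genes included Eln, Ppp2r2b, C1qb and Col14a1, and had a median of 12318 UMIs. At a finer resolution the same 67 and 48 cells stayed together, and at a coarser setting all 115 shared 1 cluster. The clusters were built on the cells' own expression, so differences between them are a description.

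The rule genes divided between the clusters. Adamts18 stood at 819 CPM in members of the first cluster and 36.8 CPM in those of the second. Rspo2 stood at 495 and 128 CPM, and Ebf2 at 254 and 84.5 CPM. In the other direction, Negr1 stood at 366 and 2568 CPM, Egfem1 at 33.6 and 451 CPM, and Sgcz at 1267 and 2522 CPM. Adamtsl3 was level, at 370 and 373 CPM.

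Within single cells the same division appeared. Both Adamts18 and Rspo2 were detected in 77.6% of members of the first cluster and 8.33% of members of the second. Both Negr1 and Egfem1 were detected in 10.4% and 70.8%. The label of the group, which names Ebf2 and Adamts18, therefore described the members of the first cluster, while Negr1, Egfem1 and Sgcz were highest in those of the second. The rule of 4 genes took in cells of both kinds. Non-members of each cluster kept part of the pattern, with Adamts18 at 410 CPM among 112 non-members of the first cluster. Negr1 stood at 1874 CPM among 87 non-members of the second. Ebf2 stood at 306 CPM in the 112 non-members, above its level in members of the first cluster, so it did not separate these members from the rest of their cluster.

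**Figure D3:**
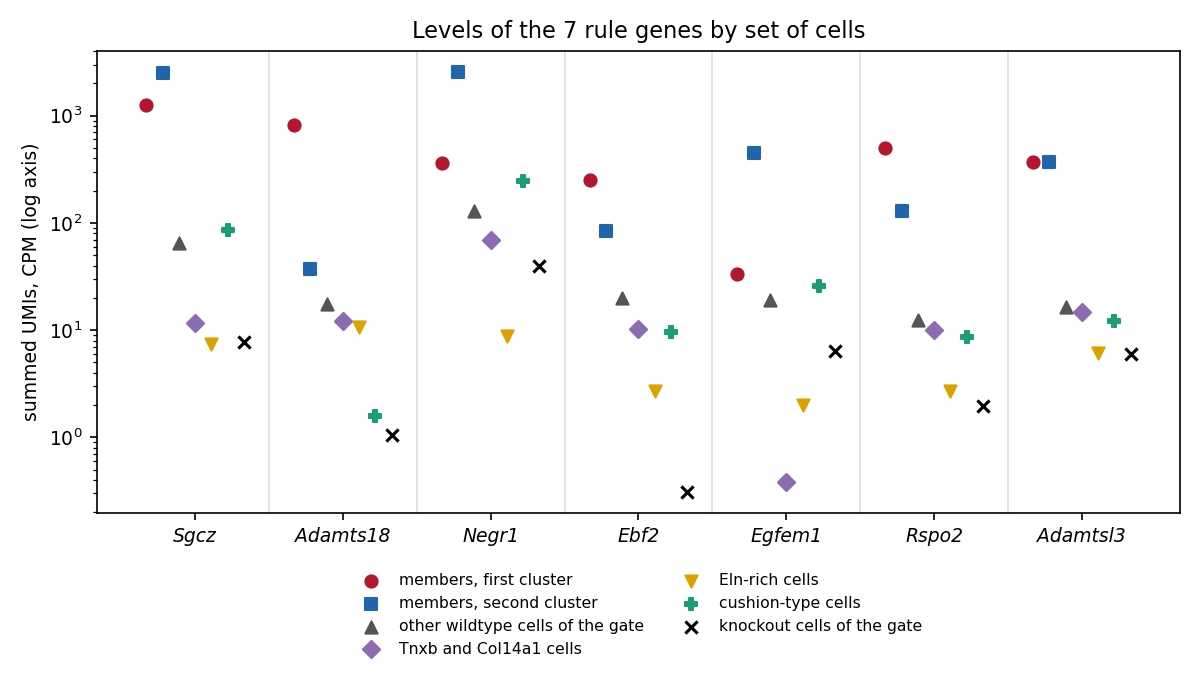
Summed level of each rule gene (x axis) in CPM on a log axis, for members of the 2 clusters, other wildtype gate cells, 3 other mesenchymal sets and knockout gate cells; each point is 1 set of cells of 1 library. Adamts18, Ebf2 and Rspo2 are highest in members of the first cluster (red), and Sgcz, Negr1 and Egfem1 in members of the second (blue).

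Several named genes stood higher in members of the first cluster. Cxcl13 stood at 478 CPM there and had 0 UMIs in members of the second cluster (Poisson upper bound 7.99 CPM). Cdh18 stood at 1023 and 80.2 CPM, Crabp1 at 648 and 82.3 CPM, and Ebf3 at 521 and 60.7 CPM. Adamtsl1, another Adamts-like protein, stood at 804 and 19.5 CPM, and the secreted guidance protein gene Sema3a at 448 and 15.2 CPM. The collagens Col1a1 (2417 and 479 CPM) and Col3a1 (2566 and 535 CPM), the proteoglycan gene Dcn (1150 and 117 CPM) and the Wnt-binding Sfrp2 (299 and 10.8 CPM) were in the same direction. Chosen after their values were seen, Tnc stood at 147 CPM and 0 UMIs, and Cxcl12 at 188 and 8.67 CPM.

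Other named genes stood higher in members of the second cluster. Tbx2 stood at 37.3 CPM in the first and 182 CPM in the second, Tbx3 at 14.9 and 128 CPM, Tbx4 at 13.1 and 84.5 CPM, and Tbx5 at 33.6 and 141 CPM. Isl1 stood at 13.1 and 91.0 CPM. Fgf10 went the other way, at 46.7 and 8.67 CPM, and so did Wnt2 of the same foregut and lung list, at 22.4 CPM and 0 UMIs. Wnt5a stood at 103 and 418 CPM, Ptch1 at 37.3 and 145 CPM, and the guidance receptor gene Robo2 at 175 and 1374 CPM. Cartilage-related genes summed to 664 and 1736 CPM, and to 1221 CPM in the other gate cells. Of 9 tested, 5 were at least 2-fold higher in the second cluster and 0 in the first. Col2a1 stood at 1.87 and 95.3 CPM, Matn4 at 1.87 and 65.0 CPM, Sox9 at 146 and 410 CPM, and Sox5 at 89.6 and 477 CPM. Over all members, 5 of 9 tested genes of this list were at least 2-fold higher than in other non-erythroid cells and 1 lower (median 1.11). The antisense neighbour of Tbx3, Tbx3os1, chosen after its value was seen, stood at 13.1 and 338 CPM. No source used here says whether counting was by strand, so reads of the antisense gene and of Tbx3 may not be separable.

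Hox genes did not part the clusters. Summed, the anterior Hox genes stood at 586 CPM in members of the first and 659 CPM in members of the second. Hoxa5 stood at 166 and 199 CPM, and Hoxa3 at 78.4 and 117 CPM. Osr1 (228 and 199 CPM), Prrx1 (440 and 282 CPM), Ror1 (567 and 576 CPM), Tmem132c (254 and 286 CPM) and Cdon (256 and 258 CPM) were likewise within 2-fold. These genes, with Adamtsl3, are examples of genes at like levels in members of both clusters. Cell-cycle genes were lower in the first, with G2 and M genes summing to 698 and 1920 CPM, S-phase genes to 635 and 1307 CPM, Mki67 at 61.6 and 193 CPM, and Hmga2, a chromatin protein of early embryonic stages, at 284 and 960 CPM. The median depth was 7327 UMIs in members of the first cluster and 9130.5 UMIs in those of the second.

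**Figure D4:**
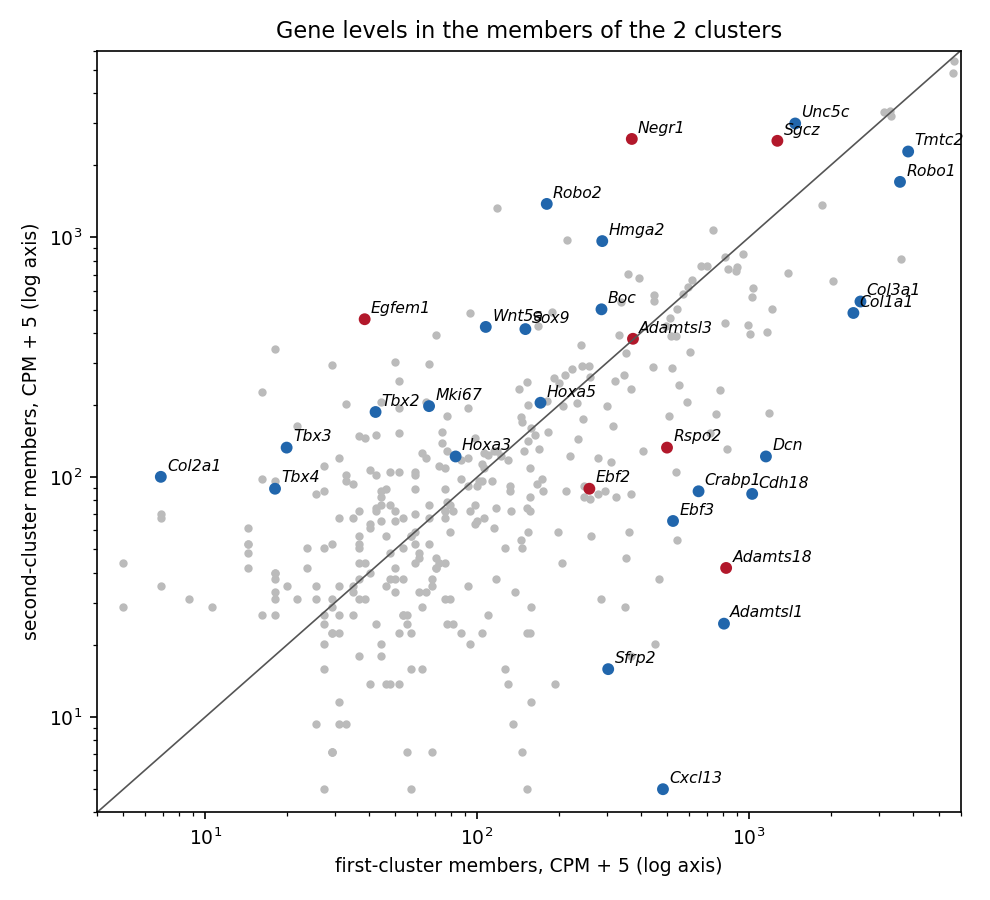
Level of named genes in members of the first cluster (x axis) and of the second (y axis), in CPM with 5 added, on log axes; rule genes are red, other labelled genes blue, and the line marks equal levels. Cxcl13 lies at the bottom edge, with 0 UMIs in the second cluster, while Adamtsl3 and Hoxa5 lie near the line.

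The members were set beside 3 other mesenchymal sets of the wildtype library, chosen by their own genes: 440 Tnxb and Col14a1 cells, 155 Eln-rich cells of arterial wall type and 557 cushion-type cells. A further 4, 1 and 7 members met the conditions of these sets and were left out of them. The sets thus held no cell with at least 4 of the 7 rule genes, which helped to set the levels of these genes. Each of the 7 rule genes was below its members' level in each set, between 0.384 CPM (Egfem1 in Tnxb and Col14a1 cells) and 247 CPM (Negr1 in cushion-type cells). Of the genes that the choice did not use, the Hox and Osr1 pattern was found in part in the Eln-rich cells. There Hoxa5 stood at 18.2 CPM, Hoxa3 at 37.0 CPM, Hoxb3 at 40.4 CPM and Osr1 at 192 CPM, against 1.92, 1.92, 2.30 and 31.1 CPM in Tnxb and Col14a1 cells. Ror1 stood at 932 CPM in Eln-rich cells, above its level in members given earlier. Cdh18 (109 CPM) and Dgkb (81.5 CPM) were also present in Eln-rich cells, while Cxcl13 (2.69 CPM) and Tbx3 (0.673 CPM) were near 0. The elastic and smooth muscle genes were the reverse, with Acta2 at 151 CPM in members and 1818 CPM in Eln-rich cells. Adamts proteases without Adamts18 summed to 1032 CPM in members and 1517 CPM in Eln-rich cells (median log2 ratio -0.36). R-spondins and Wnt surface genes without Rspo2 summed to 1036 and 1930 CPM (-0.28). Against Tnxb and Col14a1 cells these medians were 0.51 and 0.47, and against cushion-type cells 0.021 and 0.005. Retinoic acid genes summed to 1896 CPM in members and 2217 CPM in Tnxb and Col14a1 cells (median 0.23).

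Transcripts of the sex chromosomes were uneven among the members. The wildtype pool held cells with Y-linked transcripts and cells with Xist, the transcript of the inactive X. Of the 105 members with either but not both, 96 had Y genes (91.4% [84.4, 96.0]), against 2169 of 4190 other non-erythroid cells (51.8% [50.2, 53.3]) and 51.6% of the other gate cells. In the second cluster, 42 of 42 such members (interval from 91.6%) and 69 of 70 non-members had Y genes. In the first, 49 of 55 members (89.1% [77.8, 95.9]) and 58 of 96 non-members (60.4% [49.9, 70.3]) did. The other 3 mesenchymal sets lay between 37.8% and 50.6%. Y genes were also found in 13 of 13 such cells of a cluster of 15 cells led by Myh11 and Actg2, and in 11 of 13 of a cluster of 36 led by Myl1 and Nppa, neither of which held members. The second cluster thus came almost wholly from cells with Y transcripts, while the first drew on both kinds.

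The labels give neither the sex of the embryos nor how many of each sex were pooled, so sex and single embryo of origin cannot be told apart. Xist and Y genes together were found in 7.87% of members and 4.79% of other non-erythroid cells. They were found in 2.99% of members of the first cluster, 8.33% of those of the second and 33.3% of the 12 in other clusters. Whether some of these 12 are doublets was not tested. Among gate cells, 96 of 1371 with Y genes only were members (95% interval 5.71% to 8.48%), as were 9 of 1203 with Xist only (0.748% [0.343, 1.42]). Within the first cluster, 107 cells with Y genes only and 44 with Xist only had median depths of 7349 and 7359.5 UMIs.

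In that cluster some genes were level and some not. Sgcz stood at 898 CPM [834, 966] in cells with Y genes and 78.8 CPM [52.3, 114] in cells with Xist. Rspo2 stood at 344 and 78.8 CPM, Adamtsl3 at 223 and 95.6 CPM, and Tmtc2 at 2853 and 1277 CPM. Ebf2 was the reverse, at 240 CPM [207, 276] and 470 CPM [401, 547]. Adamts18 (655 and 456 CPM), Cxcl13 (315 and 290 CPM), Hoxa5 (134 and 191 CPM) and Col1a1 (2486 and 2363 CPM) were closer. Of these cells, 49 of the 107 with Y genes and 6 of the 44 with Xist were members. None of the genes named here lies on a sex chromosome. With cells of Y genes and no Xist on both sides, a comparison chosen after seeing the data, the median log2 ratio of the anterior Hox genes in members over other non-erythroid cells was 2.18, and that of the Hedgehog pathway 1.36. The log2 ratio of Cxcl13 was 4.16 and that of Cdh18 4.15. Most members entered this comparison, since 96 of the 105 with 1 kind of transcript had Y genes. The medians of general mesenchyme (0.49) and of Adamts proteases (0.29) were smaller there.

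**Figure D5:**
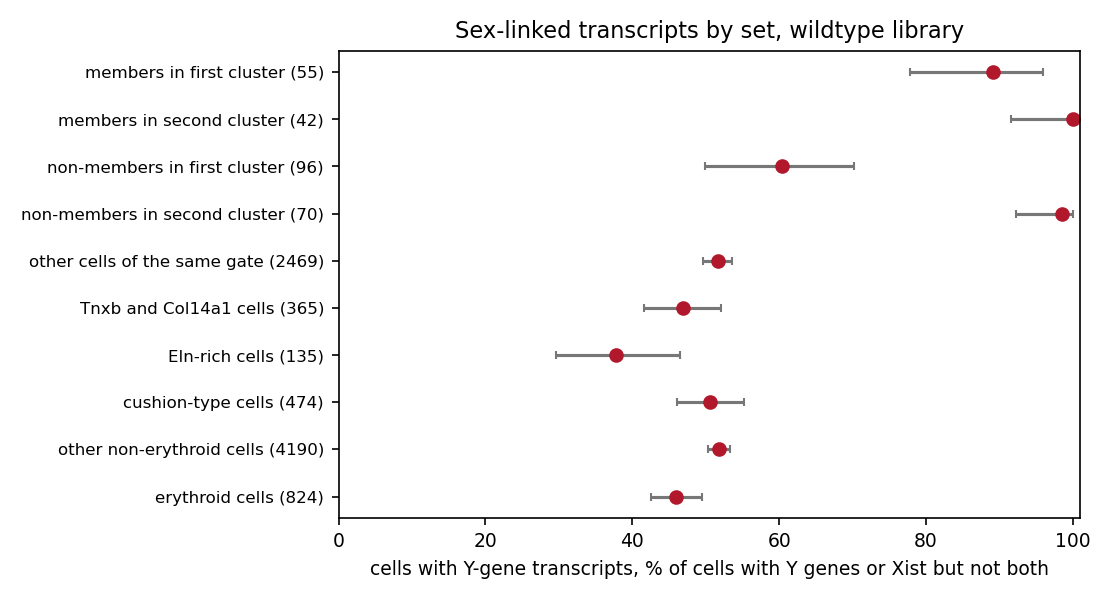
Share of wildtype cells with Y-gene transcripts, in percent of cells with Y genes or Xist but not both (number in brackets), by set of cells; bars are exact Clopper-Pearson 95% intervals for counting error only. Members of the second cluster stand at 100% and members of the first at 89.1%, while other non-erythroid cells stand at 51.8%.

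In the knockout library the same rule found 1 cell of 4800 non-erythroid cells (0.0208% [0.000527, 0.116]) and of 3131 gate cells, although knockout gate cells were deeper, at a median of 16168 UMIs. With every cell thinned to 3000 UMIs, 68 wildtype cells (1.30% [1.01, 1.64]) and 0 knockout cells passed, which allows a knockout share of up to 0.0625% by the limit of 3 cells and 0.0768% by the exact interval. At 3 or more of the 7 genes there were 256 wildtype and 19 knockout cells before thinning, and 157 and 0 after it. Summed over knockout gate cells, Ebf2 stood at 0.31 CPM, Adamts18 at 1.06 CPM, Rspo2 at 1.95 CPM, Cxcl13 at 0.0365 CPM and Hoxa5 at 0.274 CPM. The other wildtype gate cells held 19.8, 17.6, 12.4, 4.76 and 15.1 CPM of these genes. Some lists of mesenchymal genes were also lower in knockout gate cells than in the other wildtype gate cells. Fibrillar collagens summed to 1228 and 4779 CPM, adventitial fibroblast genes to 523 and 1722 CPM, and general mesenchyme genes to 4845 and 9082 CPM. Others were higher in knockout gate cells, with chondrogenic genes at 1439 and 1221 CPM and paraxial and dermal mesenchyme genes at 484 and 366 CPM. Markers of other cell types differed too. Hepatic genes summed to 611 and 1.65 CPM, epicardial and mesothelial genes to 2613 and 1602 CPM, cardiomyocyte genes to 1555 and 1245 CPM, and macrophage genes to 124 and 1108 CPM. Embryonic stage genes summed to 1497 and 760 CPM. How far the mix of cells set the mesenchymal sums was not tested. Ebf1 stood at 479 CPM and Pdgfra at 77.5 CPM in the knockout gate. The sex-linked and globin transcripts given above also differed between the pools, and with 1 pool each these cannot be told apart from genotype.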

How the data were processed

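Libraries were of the 10x Chromium 3′ type, per the labels' protocols. The deposited values are UMI counts for each gene in every barcode, not only in cells. The submitters' processing notes name Cell Ranger 7.1.0 and mm10. The authors' treatment of cell filters, intronic reads and strand was not given in the sources used here. Cells had at least 3000 UMIs, at least 500 genes and at most 20% mitochondrial UMIs, and non-erythroid cells under 20% hemoglobin. The members, gene lists and comparisons were chosen with earlier results of these data known. UMIs were summed over the cells of a set and scaled to CPM, and genes with at least 10 CPM in either set were compared as log2 ratios with 10 CPM added. Levels have exact Poisson intervals, shares exact Clopper-Pearson intervals and ratios exact conditional binomial intervals, at 95%. For a share of 0, the upper limit is that of 3 cells.

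Named genes were the 7 rule genes, the 20 highest and 10 lowest against other non-erythroid cells (at least 50 CPM on the higher side and 200 UMIs), the 10 highest against the gate, and list genes of at least 20 CPM in members; genes given for being low or at 0 were added from the lists. Rule genes were left out of all other lists. Eln-rich cells had at least 20 Eln UMIs per 10000 and cushion-type cells at least 4 of 7 cushion genes. Clustering used 2000 variable genes, 30 components, 15 neighbours and the Leiden method at resolution 1. Near-empty barcodes (1 to 100 UMIs) gave the free RNA. The Scrublet caller marked 0.0134% of wildtype cells and so did not work; doublets were kept, and removal of the highest scores at 0.8% per 1000 cells (445 cells, 8 of them members) was an alternative. Genes were placed with GENCODE vM21, with 50 of 32285 unmatched. Python 3.11.15, numpy 2.4.6, scipy 1.17.1, pandas 2.3.3, scanpy 1.11.5, igraph 0.11.9, scikit-learn 1.9.0 and matplotlib 3.10.9 were used.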

Additional observations from a re-analysis of the deposited data

How the results depend on the processing

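The number of members was 256 with at least 3 of the 7 genes, 60 with at least 5 and 68 after thinning to 3000 UMIs. Their share among non-erythroid wildtype cells was then 4.89%, 1.15% and 1.30%, and it was 1.74% with 0 of 6 endothelial genes allowed. The share passing the rule in knockout was 0.396% with at least 3 genes and 0% with at least 5, after thinning and with 0 endothelial genes. With 1 CPM added in place of 10, the count of genes at least 2-fold higher in members than in other non-erythroid cells was 795, and that of genes at least 2-fold lower was 1169. For Hba-x, the log2 ratio turned to 0.14 with at least 3 genes, and the cause was not tested.

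Alternatives by cluster, by Y transcripts and by resolution were chosen after seeing the data. With members of the second cluster only, 1209 genes were at least 2-fold lower. The median log2 ratio then reversed for general mesenchyme (-0.11), fibrillar collagens (-0.11), other collagens (-0.064) and Adamts-like proteins (-0.28). So did the log2 ratio of Cxcl13 (-0.41), Col1a1 (-0.58), Col1a2 (-0.11), Lum (-0.94), Sfrp2 (-2.39), Dlk1 (-0.45), Adamtsl1 (-2.03), Sgcd (-0.26), Col6a6 (-1.52), Sema3a (-1.78) and Nrp2 (-0.040). With members of the first cluster only, chondrogenic cells (median -0.54), Matn4 (-0.54) and Robo2 (-0.21) reversed. Of 148 called gene ratios and 33 called list medians, 114 and 22 kept their call with the second cluster only (11 and 4 reversed), and 127 and 29 with the first only (2 and 1 reversed). The cause was not tested beyond the cluster levels given above. Among cells with Y genes and no Xist on both sides, 135 of 148 called gene ratios and 29 of 33 list medians kept their call, and 0 reversed. No paired analysis was possible because each group has 1 library. Depth limits genes under about 10 CPM in members.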
